A study of Mus musculus with 3 samples.

Results

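A set of 36 mouse genes for heme, iron and the red cell membrane was examined for binding of ETO2, out of 22380 protein-coding genes in the GENCODE annotation of build mm9. The genes were grouped by what they do, and the list was drawn up with earlier results of these data known. They comprise 10 genes of heme synthesis and transport, 2 of heme breakdown, 6 of iron uptake, transport and storage, 11 of the membrane, its cytoskeleton and blood groups, 4 other red cell enzymes and regulators, and 3 for the erythropoietin receptor and survival. All 36 were found in the annotation, with Tfr2 listed there as Trfr2. A gene was given a site when a peak summit lay in its body or within 20 kb of it, or when the gene owned the protein-coding start site nearest to the summit.

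ETO2, the product of Cbfa2t3, is a co-repressor that reaches its sites on DNA through partners such as SCL and GATA factors. The study mapped it by chromatin immunoprecipitation and sequencing (ChIP-seq) in FLK1+ mesoderm, isolated from embryoid bodies (EBs) that were grown from wild type embryonic stem cells of strain C57Bl/6 X Sv129. The paper's methods name its wild type stem cells as the J1 line and give no strain for them. The labels place all 3 samples, 2 ETO2 ChIP samples that the series describes as separate differentiations and 1 input without antibody, at day 4 of EB formation, although the design text of the series names a slightly earlier day. The peak lists hold no expression values, so the FLK1+ label could not be checked against markers, and the lists show where ETO2 was bound, not whether a gene was active.

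Heme is built in an enzyme chain that starts and ends in the mitochondrion, and Alas2 encodes the erythroid form of its first, rate-setting enzyme. Red cell precursors feed this chain with iron, which enters through the transferrin receptor and reaches the mitochondrion through mitoferrin, and they surround the haemoglobin with a membrane held by a spectrin and ankyrin skeleton. In erythroid cells many of these genes carry sites for GATA1 and SCL complexes, whose usual DNA word is WGATAR, in which W is A or T and R is A or G.

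The windows below were chosen to show the DNA under the peaks at heme, iron and survival genes. Each was read from the plus strand of mm9, 5′ to 3′, and capitals mark WGATAR on either strand, so that a match on the minus strand reads as TTATCW or CTATCW, the reverse complement, with W again A or T. For the strongest site called in both replicates, the 100 bp centred on the replicate 1 summit are given for Alas2 (chrX:146984279-146984378), Abcb10 (chr8:126512673-126512772), Bcl2l1 (chr2:152615000-152615099) and Pim1 (chr17:29584378-29584477).
Alas2: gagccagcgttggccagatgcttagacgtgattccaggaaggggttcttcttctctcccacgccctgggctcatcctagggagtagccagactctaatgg
Abcb10: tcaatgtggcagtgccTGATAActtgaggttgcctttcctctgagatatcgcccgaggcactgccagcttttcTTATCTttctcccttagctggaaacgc
Bcl2l1: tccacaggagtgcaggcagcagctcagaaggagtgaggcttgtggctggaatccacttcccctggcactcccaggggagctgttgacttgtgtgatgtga
Pim1: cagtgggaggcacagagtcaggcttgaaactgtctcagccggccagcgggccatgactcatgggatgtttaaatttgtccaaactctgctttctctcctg

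The Abcb10 window held 2 matches, and the windows of Alas2, Bcl2l1 and Pim1 held none. In these 3 genes the nearest WGATAR lay just outside, 50 bp from the summit in Alas2, 54 bp in Bcl2l1 and 65 bp in Pim1. The 30 bases around it are printed for Alas2 (chrX:146984367-146984396), Bcl2l1 (chr2:152614979-152615008) and Pim1 (chr17:29584346-29584375).
Alas2 nearest match: agactctaatggTGATAAgctctaggggct
Bcl2l1 nearest match: cacacagagtccTTATCTctctccacagga
Pim1 nearest match: ctggtctccagcTTATCTtcaaccagaggg

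Further heme and iron genes had peaks in replicate 1 only, and their windows are shown for comparison with the shared sites. They are Uros in an intron (chr7:140889795-140889894), Slc25a37 (chr14:69896138-69896237) and Fth1 (chr19:10061946-10062045), each over 100 bp, and Uros at a start site (chr7:140894234-140894263) and Cpox (chr16:58670313-58670342), each as the 30 bases around the match because the window covers an untranslated exon.
Uros intron: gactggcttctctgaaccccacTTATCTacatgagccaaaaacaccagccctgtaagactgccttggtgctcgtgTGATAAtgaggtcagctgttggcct
Slc25a37: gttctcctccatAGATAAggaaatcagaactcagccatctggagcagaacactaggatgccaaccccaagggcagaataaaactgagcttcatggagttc
Fth1: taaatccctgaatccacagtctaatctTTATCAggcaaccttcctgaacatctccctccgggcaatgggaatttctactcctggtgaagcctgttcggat
Uros start site: gccctctgtcacTGATAAggctgagggaga
Cpox: cagggtgcagtcTTATCTgctctttccggg

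All of these replicate 1 windows held a match. These windows and the 30-base stretches were chosen for print after their values had been seen.

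A site in either replicate was found at 11 of the 36 members (30.6%, 95% Wilson interval 18 to 46.9), against 13.5% of all protein-coding genes. A site called in both replicates, meaning that the peaks overlapped by at least 1 bp, was found at 5 members (13.9%, interval 6.08 to 28.7), against 5.1% of all protein-coding genes. The labels name the ChIP samples as replicates 1 and 2, but both deposited lists carry the same ChIP number in their names. If they came from the same chromatin, a site called in both would show technical agreement only, which could not be settled from the lists. The 11 members are Alas2, Uros, Cpox, Abcb10, Slc25a37, Fth1, Gypc, Ank1, Ache, Bcl2l1 and Pim1, and the 5 with a shared site are Alas2, Abcb10, Gypc, Bcl2l1 and Pim1. The study picked out Gypc, Ache and Epor from these same samples, so that their part in these counts is not independent evidence. Without those genes the counts were 9 of 33, where gene length gave 4.37, and 4 of 33, where it gave 1.65, a setting added after the data were seen.

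Longer genes offer more room for a summit, and the share of protein-coding genes with a site rose from 6.17% in the shortest decile of gene length to 28.2% in the longest. Members were close to the genome in this respect, with a median length of 17.8 kb against 15.4 kb for all protein-coding genes. The shortest member, Fth1, spans 2.39 kb and the longest, Ank1, spans 176 kb. Giving each member the share of its own decile led to an expected 4.71 members with a site and 1.76 with a shared site. With genes binned by the size of the whole neighbourhood that the rule scans, in place of the gene body, the expected numbers were 4.34 and 1.68. The observed counts of 11 and 5 were above these. No test of the set was made, and the Wilson intervals cover counting error only.

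**Figure D1:**
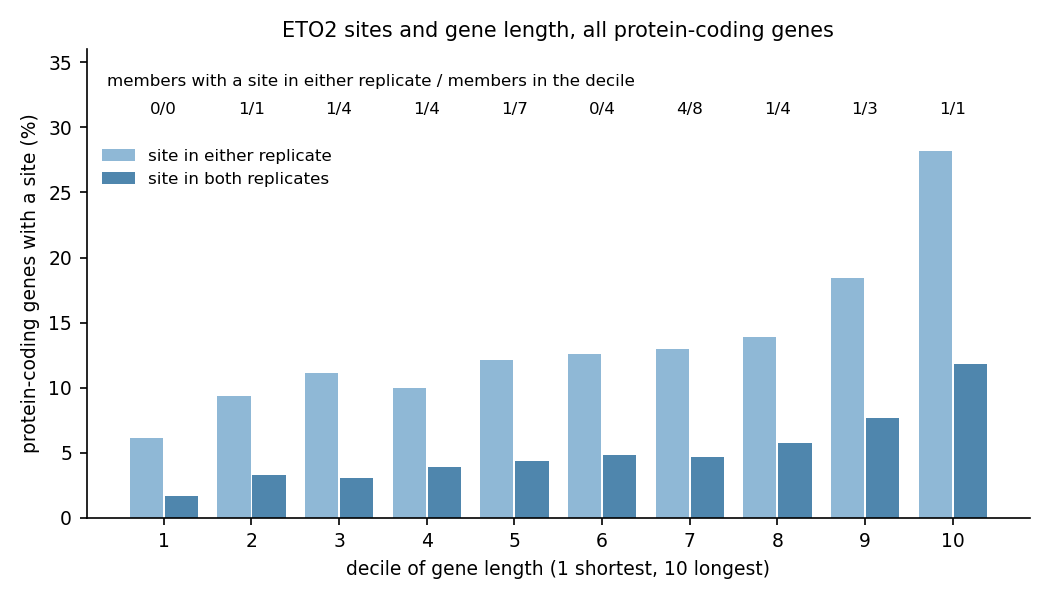
Share of all protein-coding genes with an ETO2 site (vertical axis, percent) by decile of gene length (horizontal axis, 2238 genes each). Light bars count a site in either replicate and dark bars a site in both. Both shares are highest in the longest decile, at 28.2% and 11.8%, and the numbers above give the members with a site in either replicate over the members in that decile.

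The authors' fold enrichment is the scaled number of ChIP fragments over the summit, plus 1, divided by the local background plus 1. It was set against an input in replicate 1 and against the ChIP library itself in replicate 2, so values were ranked within a list and not compared between lists. The whole number of ChIP fragments over each summit was recovered from the fold enrichment and the p-value, and is given with an exact 95% Poisson interval.

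Of the heme synthesis and transport genes, 4 of 10 had a site and 2 of 10 a shared one, where gene length gave 1.2 and 0.419. Alas2 had 1 shared site, called at chrX:146984145-146984539 in replicate 1 and chrX:146984229-146984489 in replicate 2. Its fold enrichment was 12.8 in replicate 1 from 48 fragments (interval 35.4 to 63.6) and 5.65 in replicate 2 from 34 fragments (23.5 to 47.5). The summits lay 18 bp apart, in an intron 2.33 kb downstream of the nearest Alas2 start site. These values put the peak at rank 125 of 2335 in replicate 1 and rank 602 of 1873 in replicate 2. The summit also falls inside the annotated model of Apex2, a DNA repair gene next to Alas2, but its nearest start site is that of Alas2.

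Abcb10 encodes a transporter of the inner mitochondrial membrane that is needed for haemoglobin production. Its shared site, at chr8:126512551-126512906 in replicate 1 and chr8:126512598-126512873 in replicate 2, lay 5.70 kb upstream of the start site, with the summits 2 bp apart. Fold enrichment was 9.73 from 79 fragments (62.5 to 98.5) in replicate 1 and 5.97 from 60 fragments (45.8 to 77.2) in replicate 2. The fragment numbers were thus higher than at Alas2 in both libraries while the fold was lower in replicate 1. The local background there was 10 fragments in replicate 1 and 9.23 in replicate 2, against medians over all peaks of 6 and 5.6. Peaks on chromosome 8 as a whole had a median background of 8 and 8.14, and the part of this background in the Abcb10 values was not tested. A second peak 7.82 kb upstream was called in replicate 1 only, with a fold of 4.60 from 24 fragments, and both summits fall inside the annotated model Gm20388.

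Uros encodes the enzyme that closes the porphyrin ring, and the gene is transcribed from separate housekeeping and erythroid start sites. It had 2 peaks, both in replicate 1 only. One summit lay 7.50 kb inside the gene and 0.043 kb from an annotated start site, with a fold of 5.76 from 25 fragments (16.2 to 36.9). The other lay 4.45 kb downstream of that start site, in an intron, with a fold of 4.74 from 24 fragments. Cpox, which acts later in the chain in the space between the mitochondrial membranes, had 1 replicate 1 peak with its summit 0.017 kb from the start site, a fold of 5.12 and 27 fragments (17.8 to 39.3). Neither gene had a peak in replicate 2. Alad, Urod, Ppox and Fech, which encode other enzymes of the chain, Slc25a38, the mitochondrial glycine carrier, and Abcb6, a porphyrin transporter, had no site in either list.

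The heme breakdown genes Hmox1, which encodes the inducible heme oxygenase, and Blvrb, a biliverdin reductase, had no site, and their closest summits were 292 and 308 kb away. For this group gene length gave 0.225 with a site and 0.0871 with a shared one.

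In the iron group 2 of 6 genes had a site and none had a shared one, where gene length gave 0.811 and 0.32. Slc25a37 encodes mitoferrin 1, which carries iron into the mitochondrion. Its peak in replicate 1 (chr14:69895983-69896380) lay in an intron 6.97 kb downstream of the start site, with a fold of 4.49 from 26 fragments (17.0 to 38.1). Fth1 encodes the ferritin heavy chain, which stores iron. Its peak in replicate 1 (chr19:10061829-10062184) lay 2.41 kb past the end of the gene and inside the neighbouring gene Best1, with a fold of 5.06 from 37 fragments (26.1 to 51.0). Both peaks were in the lower part of the replicate 1 list, at ranks 1574 and 1252 of 2335. Tfrc, the transferrin receptor, its relative Tfr2, the iron transporter Slc11a2 and the ferrireductase Steap3 had no site. The summit closest to Tfrc was 99.2 kb from the gene, outside the limits of the rule, and belonged to a peak that was called in both replicates with a fold of 19.5.

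**Figure D2:**
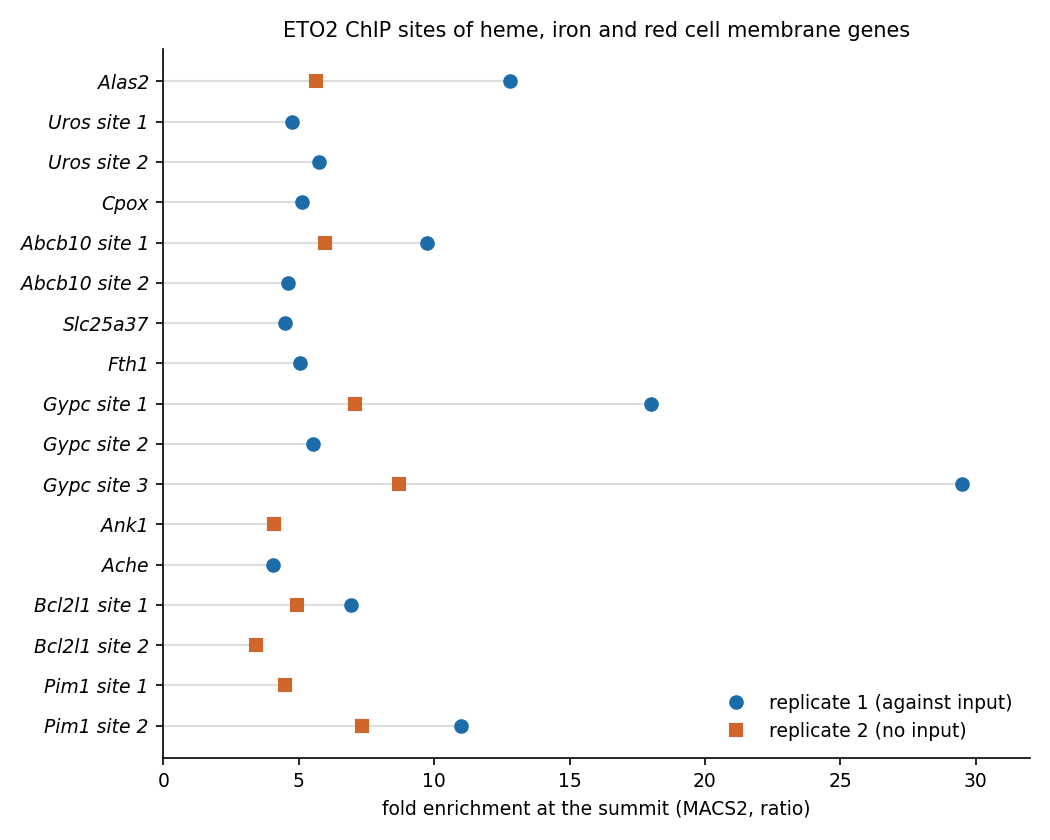
Fold enrichment at the summit (horizontal axis, ratio) of the 17 sites at members, in genome order within each gene; circles are replicate 1 and squares replicate 2, and a missing symbol means that no peak was listed. Gypc holds the highest replicate 1 value, 29.5, and all peaks called in replicate 1 only lie between 4.05 and 5.76.

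Of the membrane, cytoskeleton and blood group genes, 2 of 11 had a site and 1 a shared one, where gene length gave 1.63 and 0.635. Gypc encodes glycophorin C, which ties the membrane to its skeleton and carries the Gerbich blood group. It had 3 sites, all in introns of the longer of its 2 gene models, of which 2 were shared. The stronger, at chr18:32701947-32702464 in replicate 1 and chr18:32702036-32702402 in replicate 2, had a fold of 29.5 from 116 fragments (95.9 to 139) in replicate 1 and of 8.71 from 81 fragments (64.3 to 101) in replicate 2. This was the highest fold of all 2335 replicate 1 peaks and rank 140 of 1873 in replicate 2. The other shared site, at chr18:32697954-32698460 and chr18:32698032-32698308, had folds of 18 from 67 fragments (51.9 to 85.1) and 7.09 from 66 fragments (51.0 to 84.0), at ranks 32 and 311. A further peak between them was called in replicate 1 only, with a fold of 5.51 from 28 fragments. The shared summits lay 7.13 and 3.12 kb upstream of the nearest annotated start site of the gene, and 17.5 and 21.5 kb downstream of the 5′ end of the model.

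Ank1, the ankyrin that links the skeleton to the anion exchanger, had 1 peak, in replicate 2 only (chr8:24206041-24206236), 0.471 kb from an internal start site and 121 kb from the 5′ end of the gene. Its fold was 4.07 from 31 fragments (21.1 to 44.0) over a background of 6.85. Only 35.1% of the 24-base words of its summit window occur once in mm9, whereas each of the other 16 member windows was at 100%. It was also the only member site with no WGATAR in the 200 bp around the summit. Leaving out windows in which under 90% of the words were unique gave 10 members with a site in place of 11. No site was found at Slc4a1, the anion exchanger, at the Rh proteins Rhd and Rhag, at the blood group genes Kel, Xk and Ermap, at the skeletal proteins Add2 and Tmod1, or at the water channel Aqp1.

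Among the other enzymes and regulators, 1 of 4 genes had a site and 0 a shared one, where gene length gave 0.441 and 0.165. Ache, which encodes acetylcholinesterase and carries the Yt blood group on red cells, had a replicate 1 peak (chr5:137731058-137731400) in an untranslated exon 0.684 kb from a start site, with a fold of 4.05 from 20 fragments (12.2 to 30.9). This was the lowest fold and fragment number of the replicate 1 peaks at members. Its summit lay 1 bp from a WGATAR. The carbonic anhydrase genes Car1 and Car2, whose closest summits were 2805 and 2925 kb away, and Trim10, which takes part in late erythroid differentiation, had no site.

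Of the 3 genes for the erythropoietin receptor and survival, Bcl2l1 and Pim1 had shared sites and Epor, the receptor gene itself, had none, where gene length gave 0.407 and 0.138. Pim1, a survival kinase induced by cytokine signals, had a peak at chr17:29584278-29584608 in replicate 1 and chr17:29584268-29584582 in replicate 2. It had a fold of 11.0 from 43 fragments (31.1 to 57.9) in replicate 1 and of 7.32 from 49 fragments (36.3 to 64.8) in replicate 2, at ranks 179 and 276. This site lay 43.3 kb upstream and was given to Pim1 only because the nearest start site is that of Pim1. A weaker peak 52.2 kb upstream was called in replicate 2 only, with a fold of 4.48.

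Bcl2l1 encodes BCL-XL, which protects erythroid precursors from apoptosis. Its shared site lay in an intron 41.0 kb downstream of the nearest Bcl2l1 start site, at a summit whose nearest start site, at 34.2 kb, is that of Cox4i2. The replicate 1 peak spanned chr2:152614901-152615656, with a fold of 6.94 from 51 fragments (38.0 to 67.1), and overlapped 2 replicate 2 peaks. The stronger of these had its summit 407 bp from the replicate 1 summit and a fold of 4.94 from 40 fragments (28.6 to 54.5). A further replicate 2 peak, 12.6 kb downstream of the start site, had a fold of 3.41 from 26 fragments. Epor lay 366 kb from the closest summit, and that summit was called in replicate 1 only. The paper, in contrast, names Epor among the gene loci that SCL, ETO2 and RYBP occupied together. Its peak set and its way of giving peaks to genes were not repeated here, so the source of this difference was not tested.

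**Figure D3:**
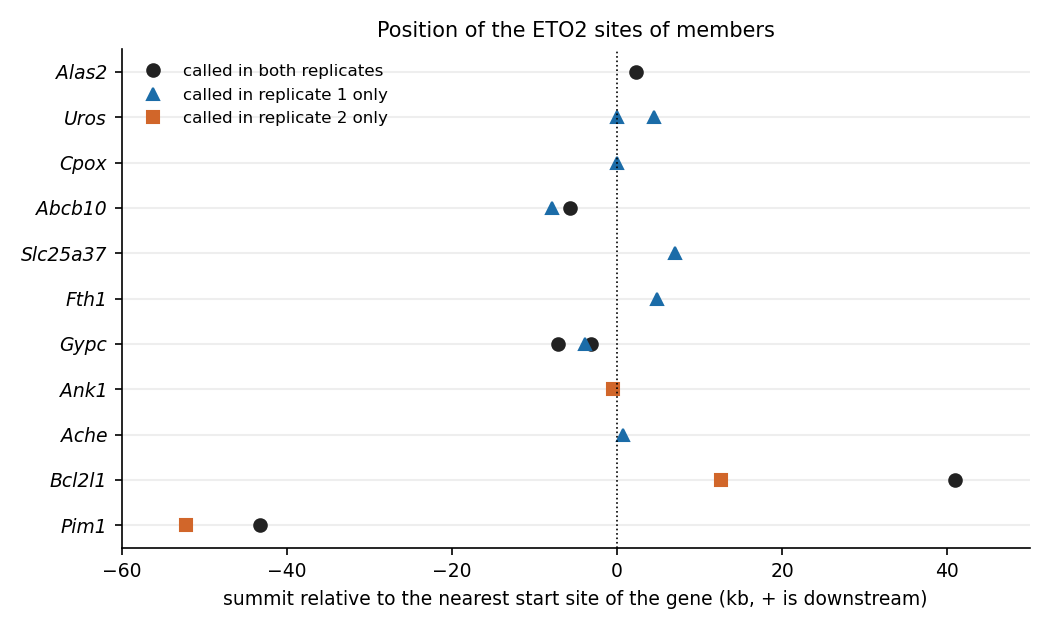
Position of each member site relative to the nearest annotated start site of its gene (horizontal axis, kb, negative upstream and positive downstream in the direction of transcription). Black circles are sites called in both replicates, triangles replicate 1 only and squares replicate 2 only. The 4 sites within 1 kb of a start site, at Uros, Cpox, Ank1 and Ache, were each called in 1 replicate, and the sites of Pim1 and the shared site of Bcl2l1 lie over 40 kb away.

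The heme, iron and membrane groups were contrasted by these counts. In either replicate the share was 40% of heme synthesis and transport genes (interval 16.8 to 68.7), 33.3% of iron genes (9.68 to 70) and 18.2% of membrane genes (5.14 to 47.7). In both replicates it was 20% (5.67 to 51), 0% (0 to 39) and 9.09% (1.62 to 37.7). These intervals overlap widely, and differences between the groups were not detectable with so few genes. The membrane share was close to the 14.8% given by gene length, and its 2 genes include the Ank1 peak in repeated sequence.

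**Figure D4:**
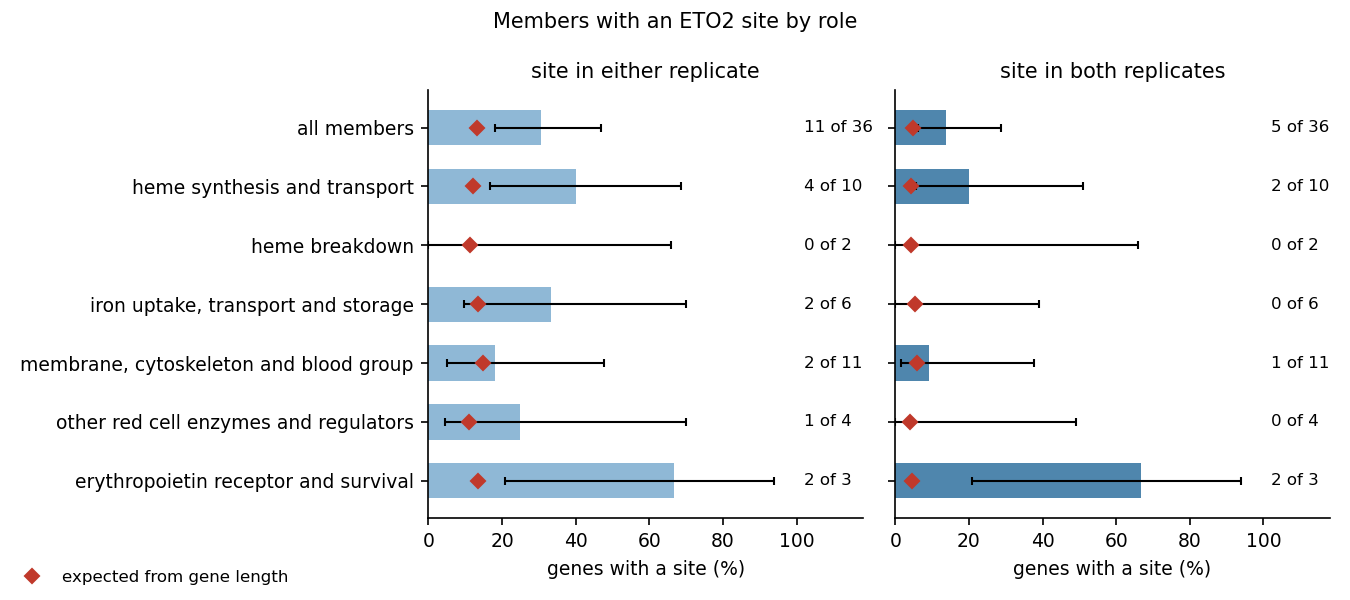
Share of members with a site (horizontal axis, percent) in each functional group, in either replicate (left) and in both replicates (right). Bars give the share, whiskers the 95% Wilson interval, red diamonds the share expected from gene length, and the text at the right the count. The intervals of the heme, iron and membrane groups overlap in both panels.

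In all, members had 17 of the 3192 sites, of which 6 were called in both replicates, 8 in replicate 1 only and 3 in replicate 2 only. Of the 14 replicate 1 peaks at members 42.9% were shared (interval 21.4 to 67.4), against 43% of all 2335. Of the 10 replicate 2 peaks 70% were shared (interval 39.7 to 89.2), against 54.2% of all 1873, a share inside that interval. The shared ones include the 2 that overlap 1 replicate 1 peak at Bcl2l1. The shared replicate 1 peaks at members held 43 to 116 fragments and those not shared held 20 to 37, so the ranges did not overlap. Across the whole list the ranges of shared and unshared peaks did overlap, and only the shares differed. There 93.1% of the 436 replicate 1 peaks with at least 43 fragments were shared, and 35.4% of the 1311 with 20 to 37 fragments. The lists hold only peaks past the caller's threshold. A member with a peak in 1 list may therefore have had weaker signal in the other, and a gene with no listed peak is not shown to be unbound.

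WGATAR was present in the 100 bp window of 12 of the 17 member sites (70.6%, interval 46.9 to 86.7), against 54.4% of all 3192 sites and 14.7% of the windows of equal length centred 500 bp to each side of the member summits. The order by class differed from that of the whole list. Among shared sites 3 of 6 member windows (50%, interval 18.8 to 81.2) and 72.5% of all windows held the word. Among replicate 1 only sites it was in 7 of 8 member windows (87.5%, interval 52.9 to 97.8) and in 57.8% of all. Both intervals include the share of the whole list, so the member sites are too few to show a difference. In 200 bp the share was 16 of 17 for members and 70.9% for all sites, with all 6 shared member sites included, so each of the 3 shared windows without the word had it within the wider span. A CTG followed by 8 to 10 bases and GATA, the spacing of joined SCL and GATA sites, was found on either strand in 3 of 17 member windows (17.6%) and in 24% of all. It was absent from the 6 shared member windows (interval 0 to 39), against 36.7% of all shared ones, a share inside that interval. The E-box CANNTG stood in 9 member windows (52.9%), the same share as in their flanks, and the reversed word RATAGW in none, against 14.0% of all sites. The E-box count includes CAGCTG, found in 3 member windows, and some CANNTG and CTG matches overlap.

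Member sites were also nearer to start sites than the whole list. Their median distance to the nearest protein-coding start site was 4.80 kb against 25.8 kb, but the rule, which assigns summits in or near genes, favours short distances. Within 1 kb of a start site lay 4 of 17 member sites (23.5%) and 10.4% of all sites. All 4 were called in a single replicate, and across the list 18.4% of replicate 1 only sites and 5.49% of shared sites lay that close.

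The 25 members without a site were not near misses in most cases. Their closest summit was 28.1 to 2925 kb from the gene, with a median of 306 kb, and only 4 of them had a summit within 100 kb. These were Rhd at 28.1 kb, Slc4a1 at 67.8 kb, Ermap at 98.2 kb and Tfrc at 99.2 kb. The summits closest to Ermap and Tfrc belonged to peaks called in both replicates. Members without a site had a median length of 17.4 kb and members with one a median of 23.8 kb.

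A list of 76 further genes of the same pathways was set beside the members. A site was found at 20 of the 76 (26.3%, interval 17.7 to 37.2, 11.1 expected from length) and a shared one at 11 (14.5%, interval 8.28 to 24.1, 4.28 expected). The membrane genes stood highest here, with 12 of 22 having a site and 8 of 22 a shared one, where 3.54 and 1.41 were expected. In contrast, 2 of 13 heme genes had a site and 0 a shared one, where 1.84 and 0.726 were expected. Of 18 iron genes, 4 had a site and 2 a shared one, where 2.48 and 0.958 were expected. The order of the heme and membrane groups was therefore the opposite of that among the members, and no order between the groups can be drawn from the counts.

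Among these membrane genes the following were picked out after their values were seen. Art4, which carries the Dombrock blood group, had a shared peak 0.020 kb upstream of its start site with folds of 16.4 and 10.9. Kcnn4, the calcium-gated potassium channel of red cells, had an intronic one with folds of 14.9 and 8.24. Of the iron genes, Heph, a ferroxidase, had a shared peak 37.4 kb upstream with folds of 6.04 and 4.52. That summit lies inside another gene, Hsf3, and was given to Heph only because the nearest start site is that of Heph. Ncoa4, the receptor for ferritin breakdown, had a shared peak with folds of 4.18 and 4.2 that lies inside the neighbouring gene Msmb. Of the 12 erythropoietin pathway genes 1 had a site, a shared one, where gene length gave 1.84 with a site and 0.683 with a shared one. That gene was Stat5a, and its peak had folds of 8.46 and 5.48 and lay inside the neighbouring gene Stat3.

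Over the whole series, replicate 1 listed 2335 peaks with folds of 1.82 to 29.5 and replicate 2 listed 1873 with folds of 1.5 to 26.1. Peaks held 12 to 206 fragments in replicate 1 and 18 to 236 in replicate 2. The lowest local background, which the caller sets from the genome average, was 4.06 fragments in replicate 1 on the scale of its input and 5.19 in replicate 2.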

How the data were processed

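ETO2 ChIP-seq peak lists of 2 replicates were analysed; the input enters only through the replicate 1 values, and the list of positions for the whole series was not used. Per the study's methods, read pairs were aligned to mm9 with Bowtie, duplicates were removed, and the authors called peaks with MACS2 (version 2.0.10) in each replicate separately. Per the deposited file names, replicate 1 was called against the input and replicate 2 without one. The deposited values used here, computed by the authors' caller at each summit, are the fold enrichment (a ratio) and −log10 values of p and q. Read totals are not in the peak lists, but the study's reporting summary gives more total reads for replicate 1 than for replicate 2. In the values recovered here, ChIP fragments were scaled by 1.342 in replicate 1 and by 1 in replicate 2. Which library kept more fragments after filtering was not tested.

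Summit fragments and local background were solved from the deposited fold and −log10 p under a Poisson model, and matched 100% of peaks in both lists within 0.005. The solver was first tested on simulated data. No peak ran past the end of its chromosome in the mm9 reference. Genes came from GENCODE for mm9, with older symbols matched through RefSeq names, and sequences were read from the same build. Coordinates count from 1. The expected number of genes with a site sums, over genes, the share in the same decile of gene length. Motifs were searched on both strands in the 100 bp around the summit and 500 bp to each side. A window was taken as unique where at least 90% of its 24-base words occur once in the genome.

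No test of the gene set was made: there is 1 group with 2 libraries, and genes or sites are not replicates. Wilson and Poisson intervals (95%) cover counting error only. All members are accounted for; those with a site in both replicates are described through their strongest such site, the others by class and distance. One further pathway gene is counted in the totals and not reported here by itself. The members, lists and motifs were chosen with earlier results of these data known. Python 3.11.15, pandas 2.3.3, SciPy 1.17.1, pysam 0.24.0 and samtools 1.23.1 were used.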

Additional observations from a re-analysis of the deposited data

How the results depend on the processing

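The count of members with a site stayed between 8 and 15 of 36 under other rules for sites and thresholds, and above the number expected from length in each. Using a single list gave 6 to 10 members. The lower value is that of replicate 2 alone, without replicate 1, where 2.51 were expected, against 4.05 for replicate 1 alone. Members with a shared site numbered 3 when summits had to lie within 5 kb of the gene and 8 when 100 kb was allowed, with 0.755 and 4.13 expected. By group, a single list gave 2 to 4 heme synthesis and transport genes, 0 to 2 iron genes, 1 to 2 membrane genes, 0 to 1 of the other enzymes and regulators, and 2 to 2 erythropoietin receptor and survival genes. In the same order, gene length gave 1.06, 0.675, 1.39, 0.39 and 0.346 for replicate 1 alone. For replicate 2 alone it gave 0.586, 0.469, 0.899, 0.222 and 0.202. The count of 1 membrane gene was that of replicate 1 alone and was below its expected number. Shared sites alone gave 2, 0, 1 and 0 for the first 4 of these groups. Without the nearest start site as a criterion, 1 erythropoietin receptor and survival gene remained, Bcl2l1. All 5 replicate 2 peaks at members with a fold of at least 5 were shared (100%). The share of member sites with WGATAR was 94.1% in 200 bp windows, and 71.4% to 80% by single list. Of 72 alternatives 58 moved the value by less than the limits set for a change. No paired analysis was possible because no result comes from a test between groups. The group counts rest on 2 to 11 genes each. The 2 libraries differ in control and in reported read total, which limits what can be said of sites called in 1 of them.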
